A study of Mus musculus with 6 samples.

Results

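The genes described here are 10 mouse genes of MHC class II antigen presentation: H2-Aa, H2-Ab1, H2-Eb1, Cd74, Ciita, H2-DMa, H2-DMb1, H2-DMb2, H2-Oa and H2-Ob. They were taken by symbol from the 32285 genes of the matrices, and all 10 were present in each of the 6 libraries. The study sequenced RNA from single live CD45+ cells, that is leukocytes, sorted from subcutaneous MC38 tumours on day 25 after inoculation, with T cell receptor libraries from the same cells. MC38 is a mouse colon carcinoma line. The knockout mice, labelled cko, carried a tamoxifen-inducible knockout of Ctcf in regulatory T cells (3 samples), and the control mice, labelled ctr, had wild-type Ctcf in those cells (3 samples). The antigen-presenting cells described below were therefore not the cells in which Ctcf was targeted. The labels call the 3 samples of a group biological replicates.

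MHC class II molecules are αβ heterodimers that show peptides from endosomes to CD4+ T cells. Cd74, the invariant chain, holds the groove closed on the way to the endosome. H2-DM (H2-DMa with H2-DMb1 or H2-DMb2) removes the last invariant chain fragment and edits the peptides, and H2-O (H2-Oa with H2-Ob) inhibits H2-DM. Ciita is the transactivator that switches these genes on, acting through factors bound to a conserved promoter module. Dendritic cells are known for high class II expression, while monocytes and macrophages raise theirs under interferon gamma.

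In the GENCODE annotation of GRCm38, the build named in the submitters' processing notes, 8 of the 10 genes lie within 224.3 kb of chromosome 17, from 34092340 to 34316674. H2-Oa (ENSMUSG00000024334), H2-DMa (ENSMUSG00000037649), H2-DMb2 (ENSMUSG00000037548), H2-DMb1 (ENSMUSG00000079547), H2-Ob (ENSMUSG00000041538), H2-Ab1 (ENSMUSG00000073421), H2-Aa (ENSMUSG00000036594, minus strand) and H2-Eb1 (ENSMUSG00000060586) follow each other in that order. Ciita (ENSMUSG00000022504) lies at chr16:10480059-10528418 on the plus strand. Cd74 (ENSMUSG00000024610) lies on another chromosome. Of the 10 genes, 5 overlap another annotated gene (H2-Eb1, Ciita, H2-DMa, H2-Oa and Cd74), and no source used here gives the strand setting of the counting. H2-DMb1 and H2-DMb2 are near-identical copies. Their longest transcripts were 94.1% identical over 1219 aligned bases, and 361 of 1434 windows of 50 bases of H2-DMb2 (25.2%) also occurred in H2-DMb1. The split of reads between the pair is therefore uncertain. By how much was not measured, since these windows cover the whole transcript and the libraries read its 5′ end.

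RefSeq promoters (GRCm38.p6, 250 bases before to 50 after the annotated start) were found for 7 of the 10 genes. They are shown because these genes are known as targets of a shared promoter module, in which an X box precedes a Y box, the inverted CCAAT motif. Capitals mark ATTGG, the Y box core, and AACNNATGATG, an X box form read off the sequences themselves (the bases that 4 of them share before ATGATG), so that those 4 hold it by construction. Each sequence is written 5′ to 3′ on the strand of its gene.
H2-Eb1, chr17:34305770-34305820, plus strand: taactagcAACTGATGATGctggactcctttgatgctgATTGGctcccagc
H2-DMb1, chr17:34153091-34153142, plus strand: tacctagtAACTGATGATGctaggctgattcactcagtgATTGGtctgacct
H2-DMb2, chr17:34145120-34145171, plus strand: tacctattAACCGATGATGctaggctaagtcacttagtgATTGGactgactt
H2-Ob, chr17:34238812-34238860, plus strand: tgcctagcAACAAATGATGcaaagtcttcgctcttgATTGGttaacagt
H2-Aa, chr17:34287859-34287909, minus strand: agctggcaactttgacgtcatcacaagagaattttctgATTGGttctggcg
H2-Oa, chr17:34092298-34092348, plus strand: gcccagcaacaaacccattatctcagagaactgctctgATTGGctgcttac

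The distance from AACNNATGATG to ATTGG was 19 bases in H2-Eb1, 20 in H2-DMb1 and H2-DMb2 and 17 in H2-Ob. ATTGG began 59 bases before the annotated start in H2-Eb1, 61 in H2-DMb1, 90 in H2-DMb2, 57 in H2-Ob, 48 in H2-Aa and 43 in H2-Oa. The stretches of H2-DMb1 and H2-DMb2 were identical at 45 of 52 bases. H2-DMa has 2 annotated starts, and ATTGG was found at 1 of them, 198 bases upstream. Among all 32851 RefSeq promoters of this length, 37.4% held ATTGG, 0.137% held AACNNATGATG, and 5 held the pair in this order within 40 bases of each other, both strands searched for each motif. Those 5 were H2-DMb1, H2-DMb2, H2-Eb1, H2-Ob and 2310002L09Rik. These are letter matches and not measured binding sites.

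The 6 libraries held 41679 cell barcodes and 310363358 UMIs (unique molecular identifiers, each marking 1 captured transcript), and 37221 cells were kept after filters, 18768 from cko and 18453 from ctr. Median UMIs per kept cell were 5698, 5134 and 6289 in cko and 6627, 7915.5 and 6146 in ctr. Pairs of libraries shared between 41 and 81 barcodes. The libraries labelled cko 1 and cko 3 shared 197 T cell receptor clonotypes with a paired sequence, of 616 and 711, while no other pair shared more than 3. Whether they came from separate animals cannot be told from the files, so edgeR's tests of the 10 genes were also run with both summed as 1 sample, and that value is given where it ends a call. The shares of cells, the shares per cell and the pathway genes were not recomputed in this way. Ctcf itself stood at 79.5, 64.7 and 70.01 CPM (UMIs of the gene per 1000000 UMIs of the summed cells) in cko T cells with a Foxp3 UMI, against 68.3, 83.3 and 103 CPM in ctr. These overlapped (71.4 ± 7.51 against 84.8 ± 17.2 CPM, SD, n = 3 each, exact permutation p = 0.3, two-sided). Which exons were deleted is not in the labels, so reads from the rest of the gene could remain and the level checks the labels only weakly.

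Cells with at least 2000 UMIs were assigned to classes by marker genes that include none of the 10 genes. This gave 4427 macrophages (748 cko, 3679 ctr), 4092 monocytes (2431 cko, 1661 ctr), 1585 conventional dendritic cells (cDC; 603 cko, 982 ctr) and 16594 T cells (9382 cko, 7212 ctr), with 1046 NK cells. The defining markers given here were highest in the class they name. Over all cells of a class, C1qb, a complement gene of macrophages, stood at 5925 CPM in macrophages, 301 CPM in monocytes and 96.7 CPM in cDC. Ly6c2, a monocyte marker, stood at 2808 CPM in macrophages, 4568 CPM in monocytes and 210.5 CPM in cDC, so the macrophage gate also held monocyte transcripts. Flt3, the growth factor receptor of dendritic cells, stood at 40.1 CPM in cDC, 0.888 CPM in macrophages and 4.34 CPM in monocytes. Within cDC, cDC1 (472 cells) led in Xcr1 with 77.8 CPM, cDC2 (774 cells) in Cd209a with 323 CPM and mature DC (174 cells) in Ccr7 with 4799.6 CPM. The cDC1 gate also held cDC2 transcripts, with Cd209a at 78.3 CPM. Its samples held 1293 to 2691 CPM of summed cDC2 markers and 636 to 901 CPM of summed cDC1 markers. The B cell marker Ms4a1 was at 0 in cDC, where the summed B cell markers (3 of 6 detected) reached 1.06 to 7.52 CPM in cko and 1.47 to 2.46 CPM in ctr.

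The genes of the class II molecule and Cd74 were high in all myeloid classes and highest in cDC. H2-Aa, the α chain of I-A, averaged 13549.7 ± 727 CPM in cDC, 10176 ± 1535 CPM in macrophages and 6698 ± 913 CPM in monocytes (SD, n = 6 samples, as for all levels in this paragraph). H2-Ab1, its β chain, averaged 11616 ± 877 CPM in cDC, 8466 ± 1153 CPM in macrophages and 5617 ± 945 CPM in monocytes. H2-Eb1, the β chain of I-E, averaged 10715 ± 726 CPM in cDC, 7964 ± 1470.0 CPM in macrophages and 4635 ± 646 CPM in monocytes. The order was therefore the same for these chains, cDC first and monocytes last. Cd74 averaged 34200.3 ± 2299 CPM in cDC, 26792 ± 4536 CPM in macrophages and 17373 ± 1936 CPM in monocytes. All 10 genes together made up 6.66% to 7.83% of the UMIs of cDC, 4.0% to 6.42% of those of macrophages and 3.19% to 4.25% of those of monocytes. UMIs count molecules and were not scaled by transcript length, so the levels are compared here between classes and groups and not between genes.

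The other members split into a group that differed modestly between classes and a group far higher in cDC. Ciita, the transactivator, averaged 124 ± 22.0 CPM in cDC, 67.7 ± 9.38 CPM in macrophages and 65.3 ± 15.3 CPM in monocytes. H2-DMa averaged 1116 ± 69.2 CPM in cDC, 928 ± 71.9 CPM in macrophages and 827 ± 84.6 CPM in monocytes, and H2-DMb1 averaged 845 ± 85.3 CPM in cDC, 834 ± 170.4 CPM in macrophages and 704 ± 116 CPM in monocytes. H2-DMb1 thus overlapped between cDC and macrophages. H2-DMb2, the other DM β chain, averaged 624 ± 181 CPM in cDC, 43.4 ± 18.6 CPM in macrophages and 60.2 ± 24.6 CPM in monocytes. H2-Oa averaged 272 ± 88.3 CPM in cDC, 16.1 ± 10.5 CPM in macrophages and 24.3 ± 7.04 CPM in monocytes. H2-Ob averaged 78.3 ± 24.1 CPM in cDC, 5.19 ± 1.62 CPM in macrophages and 8.33 ± 2.32 CPM in monocytes. For these 3 genes every cDC sample lay above every macrophage and monocyte sample.

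**Figure D1:**
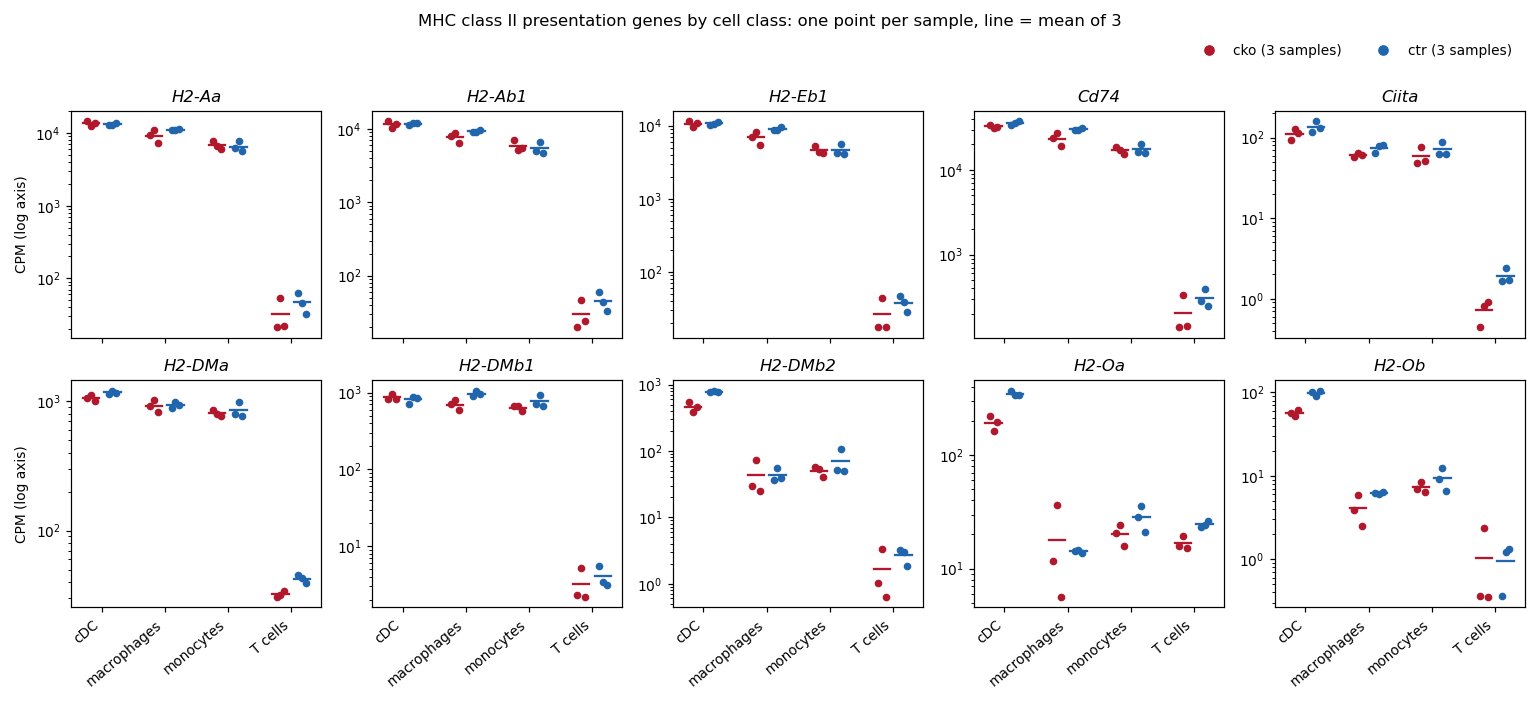
Level of each of the 10 genes (CPM, log axis) in cDC, macrophages, monocytes and T cells; each point is 1 sample, cko in red and ctr in blue, and the line is the mean of 3. H2-DMb2, H2-Oa and H2-Ob stand far higher in cDC than in the other classes, and their 3 cko cDC samples lie below the 3 ctr cDC samples.

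Class differences were tested with edgeR's quasi-likelihood test on counts summed per sample and class, with the sample as a block and Benjamini-Hochberg adjustment over all genes tested, and a gene passed at an adjusted p under 0.05. In cDC against macrophages 9 of the 10 genes were higher (background: 30.1% of all genes tested were higher and 59.9% passed in either direction). Every background share here and below is at this adjusted threshold, and shares of all genes at an unadjusted p were not counted. The median log2 fold change of the 10 was 0.46, against -0.01 over all genes tested. H2-Oa, whose macrophage counts exceeded those of T cells in 1 of 6 samples, was higher by a log2 value of 4.35 ± 0.29 (adjusted p = 1.51e-07, with SE throughout), H2-Ob by 3.97 ± 0.14 (adjusted p = 2.12e-14) and H2-DMb2 by 3.95 ± 0.26 (adjusted p = 1.3e-07). Ciita was higher by 0.88 ± 0.07 (adjusted p = 3.97e-09), Cd74 by 0.37 ± 0.10 (adjusted p = 0.00628), and H2-Aa, H2-Ab1 and H2-Eb1 by 0.43, 0.47 and 0.45. H2-DMa was higher by 0.28 ± 0.06 (adjusted p = 0.000242), while H2-DMb1 did not pass (0.05 ± 0.10, adjusted p = 0.704). The 2 DM β chain genes therefore differed between these classes by very unequal amounts.

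In cDC against monocytes all 10 genes were higher (background 30.1% higher, 60.9% either way), from 0.26 ± 0.10 for H2-DMb1 to 3.46 ± 0.26 for H2-Oa (edgeR adjusted p = 0.0443 and 4.54e-07). The H2-DMb1 call was lost with the libraries cko 1 and cko 3 summed (adjusted p = 0.0797), without a filter on low counts (0.145), and without cko 1 (0.079), cko 2 (0.132), cko 3 (0.0756) or ctr 3 (0.0887). In macrophages against monocytes 5 of the 10 passed (background 31.1%). H2-Aa (0.57 ± 0.12), H2-Ab1 (0.57 ± 0.12), H2-Eb1 (0.75 ± 0.13) and Cd74 (0.58 ± 0.10) were higher, and H2-Ob was lower (-0.80 ± 0.17, edgeR adjusted p = 0.00166). Ciita stood at 0.04 ± 0.07 (adjusted p = 0.719) in that comparison. With a stricter gate the H2-Ob difference became 0.01 (edgeR adjusted p = 0.99), and T cells held up to 39.5% of the H2-Ob level of macrophages. H2-DMb2, at -0.57 ± 0.25 (edgeR adjusted p = 0.116), passed as lower in macrophages without cko 2 (0.0014). The macrophages of that library held 851 CPM of cDC2 markers, against 399 to 563 CPM in the other libraries, but the fewest cDC1 markers (54.2 CPM). H2-Oa was at -0.89 ± 0.31 (0.0526), on macrophage and monocyte counts near those of T cells, and passed without cko 2 (7.07e-06).

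T cells served as the check of free RNA, since mouse T cells make little class II. In T cells H2-Aa stood at 21, 53.5 and 22.2 CPM in cko and 62.9, 45 and 32.2 CPM in ctr, which was 0.223% to 0.571% of its level in macrophages of the same sample. Cd74 in T cells was 0.576% to 1.35% of its macrophage level, Ciita 0.76% to 3.07% and H2-DMa 3.10% to 5.10%. These members were thus far above the T cell level in all 6 samples of each myeloid class. H2-DMb2 in T cells was 2.56% to 8.81% of its macrophage level. H2-Ob, low in both classes, reached 5.70% to 39.5% of its macrophage level and 3.93% to 28.2% of its monocyte level in T cells. Both genes still exceeded the T cell level in all 6 samples of these classes. H2-Oa was different. It stood at 16.0, 19.5 and 15.3 CPM in cko T cells and 23.4, 24.1 and 26.5 CPM in ctr T cells, which was 53.6% to 272% of the macrophage level and 67.4% to 127% of the monocyte level. H2-Oa exceeded the T cell level in 1 of 6 macrophage samples and 5 of 6 monocyte samples. In cDC the T cell level of H2-Oa was 6.28% to 11.95% of the cDC level. The ratio of H2-Oa to H2-DMa in T cells was 0.447 to 0.673, against 0.146 to 0.328 in cDC, and the ratio of Cd74 to H2-Aa was 4.55 to 8.84 in T cells, against 2.50 to 2.79 in macrophages, so the T cell counts do not keep the proportions of either class. Cd3e, a subunit of the T cell receptor complex, stood at 4.29 CPM in macrophages and 1442 CPM in T cells. Whether the H2-Oa and H2-Ob counts of T cells and macrophages come from free RNA was not tested.

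The class II genes fell into blocks that moved together over the 18 sums of macrophages, monocytes and cDC, described here without a test because the sums share libraries and depth. H2-Aa, H2-Ab1, H2-Eb1 and Cd74 correlated at Pearson r = 0.977 to 0.994 in log2(CPM + 1). H2-DMb2, H2-Oa and H2-Ob correlated with each other at 0.986 to 0.990. H2-DMb1 correlated with these 3 at only 0.312 to 0.352, although its promoter stretch is nearly that of H2-DMb2. Ciita correlated at 0.719 with H2-Aa and at 0.892 with H2-DMb2. The ratio of H2-Ab1 to H2-Aa stayed between 0.79 and 0.909 in these classes, that of H2-Eb1 to H2-Aa between 0.673 and 0.844, and that of Cd74 to H2-Aa between 2.31 and 2.81. Among 9114 other genes tested in all 3 classes, those most like the mean of H2-Aa, H2-Ab1, H2-Eb1 and Cd74 were Hmgn1, Fnbp1l, Bola3, Qdpr, Nubpl, Mrps22, Pigp and Phpt1 (r = 0.899 to 0.934), below the correlations inside the block. Those most like Ciita were Psmc2, Ppie, Phb, Set, Arpc5l, Pa2g4, Gar1 and Cyb561a3 (r = 0.951 to 0.963).

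The genotype comparison asked whether class II expression in the tumour's antigen-presenting cells differed between mice with and without Ctcf in regulatory T cells. In cDC, the class II chains, Cd74 and Ciita did not pass the test, while H2-DMb2, H2-Oa and H2-Ob fell. These were 3 of the 10 genes, all lower (edgeR's quasi-likelihood test; background 6.53% lower and 15.9% either way). H2-DMb2 stood at 545, 390.3 and 463 CPM in cko and 769.6, 811 and 766 CPM in ctr. H2-Oa stood at 220.2, 163 and 198 CPM in cko and 372, 340.0 and 338 CPM in ctr. H2-Ob stood at 56.0, 52.7 and 61.9 CPM in cko and 103, 91.8 and 105 CPM in ctr. For each of these genes all cko samples lay below all ctr samples. The share of all genes that separate the groups in this way was not counted. Lack of overlap is therefore only a description, here and in the other classes. The log2 fold changes of cko over ctr were -0.67 ± 0.13 for H2-DMb2 (adjusted p = 0.00684), -0.78 ± 0.13 for H2-Oa (adjusted p = 0.00301) and -0.74 ± 0.12 for H2-Ob (adjusted p = 0.00258). All 3 calls held in each of the 13 alternatives that were run, with the largest adjusted p at 0.049 for H2-DMb2, 0.0271 for H2-Oa and 0.0244 for H2-Ob.

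The remaining cDC values lay close together. H2-Aa stood at 14655, 12702 and 14027 CPM in cko and 13035, 13134 and 13745 CPM in ctr (log2 fold change 0.12 ± 0.09, edgeR adjusted p = 0.382). Cd74 stood at 34126, 31363 and 32396 CPM in cko and 33805, 35787 and 37726 CPM in ctr (-0.07 ± 0.08, edgeR adjusted p = 0.614). The groups overlapped for both. Ciita stood at 94.1, 129 and 115 CPM in cko and 118, 161 and 130.3 CPM in ctr (-0.21 ± 0.13, edgeR adjusted p = 0.311), again with overlap. H2-Ab1 (0.03), H2-Eb1 (0.06), H2-DMa (-0.07) and H2-DMb1 (0.16 ± 0.10, edgeR adjusted p = 0.312) did not pass. The median over the 10 genes was -0.07, against 0.00 over all genes tested.

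The share of cDC with a UMI of H2-DMb2, H2-Oa, H2-Ob or Ciita lay lower in each cko sample than in each ctr sample after cells were thinned to 2000 UMIs. The classes here were those gated before thinning. H2-DMb2 was found in 40.4% ± 4.50 of cko cDC and 59.1% ± 1.17 of ctr cDC, and H2-Oa in 22.5% ± 1.57 of cko and 41.6% ± 2.88 of ctr cDC (SD, n = 3 each, exact permutation p = 0.1 for each gene, which is the lowest value that this design can give). H2-Ob was found in 9.99% ± 1.18 of cko cDC and 15.7% ± 2.66 of ctr cDC, and Ciita in 18.5% ± 1.58 of cko and 26.5% ± 2.49 of ctr cDC (exact permutation p = 0.1 each). Without thinning, H2-DMb2 was found in 68.7% of cko cDC and 85.1% of ctr cDC, and H2-Oa in 49.9% of cko and 77.6% of ctr cDC, at median depths of 12009 to 12385 UMIs in cko and 13798 to 16229.5 UMIs in ctr. In thinned T cells, at median depths before thinning of 5953 to 7246 UMIs, the shares were 0.323% of cko and 0.429% of ctr cells for H2-DMb2 and 2.82% of cko and 4.17% of ctr cells for H2-Oa, well under the cDC shares.

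**Figure D2:**
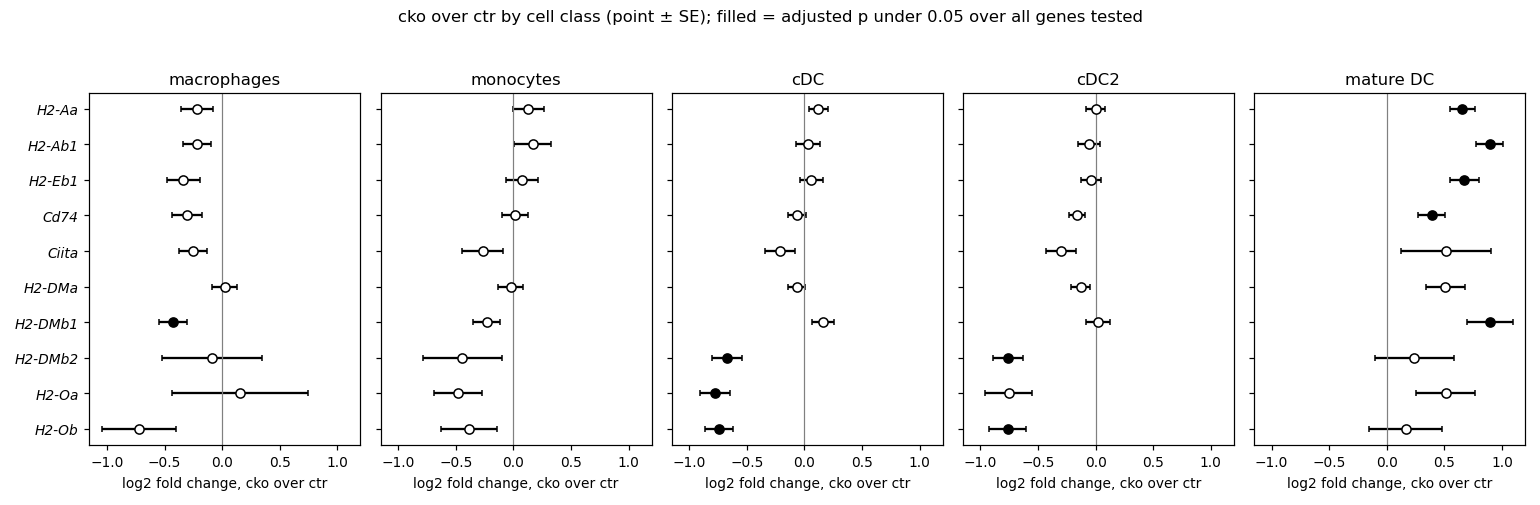
Log2 fold change of cko over ctr (x axis, point with SE from edgeR) for each of the 10 genes in macrophages, monocytes, cDC, cDC2 and mature DC; filled points passed an adjusted p of 0.05 over all genes tested in that class. The filled points lie left of 0 for H2-DMb2, H2-Oa and H2-Ob in cDC, H2-DMb2 and H2-Ob in cDC2 and H2-DMb1 in macrophages, and right of 0 for H2-Aa, H2-Ab1, H2-Eb1, Cd74 and H2-DMb1 in mature DC.

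The makeup of cDC moved with the group, so the same comparison was made within its subsets. cDC1 made up 11.1%, 14.4% and 11.1% of cDC in cko and 46.9%, 37.6% and 37.0% in ctr, and cDC2 made up 66.4%, 64.9% and 59.6% in cko and 31.5%, 41.0% and 47.8% in ctr. Mature DC made up 13.4%, 12.2% and 16.2% of cDC in cko and 13.1%, 6.18% and 8.30% in ctr, with overlap. In the cDC sums the cDC1 markers reached 172 to 237 CPM in cko and 353 to 511 CPM in ctr, the cDC2 markers 2588 to 3015 CPM in cko and 1721 to 2435 CPM in ctr, and the mature DC markers 1134 to 1869 CPM in cko and 704 to 1117 CPM in ctr. The monocyte markers reached 1432 to 1508 CPM in cko and 1052 to 1157 CPM in ctr, the macrophage markers 501 to 703 CPM in cko and 272 to 472 CPM in ctr, and the tumour or epithelial markers 9.21 to 18.1 CPM in cko and 42.7 to 51.6 CPM in ctr. None of these lists overlapped between the groups, and their part in the cDC values was not tested. H2-Ob was higher in cDC1 than in cDC2 over all samples (0.61 ± 0.15, edgeR adjusted p = 0.00761), whereas H2-DMb1 (-0.58 ± 0.14, adjusted p = 0.0104) and H2-DMa (-0.32 ± 0.11, adjusted p = 0.0499) were lower there (3 of 10 genes, background 14.1%). H2-DMb2 (0.07 ± 0.22) and H2-Oa (0.27 ± 0.23) did not pass between the subsets. The H2-DMa call was lost with cko 1 and cko 3 summed (adjusted p = 0.0736) and on leaving out cko 1 (0.0966), cko 2 (0.0538), ctr 1 (0.0977), ctr 2 (0.134) or ctr 3 (0.109).

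Within cDC2, H2-DMb2 and H2-Ob were lower in cko than in ctr (2 of 10 genes; background 4.02% lower and 10.4% either way). H2-DMb2 stood at 522, 432 and 414 CPM in cko cDC2 and 921, 769 and 699 CPM in ctr cDC2. H2-Ob stood at 48.2, 43.0 and 53.7 CPM in cko and 92.8, 87.4 and 73.8 CPM in ctr. Neither overlapped between the groups, with log2 fold changes of -0.76 ± 0.13 (edgeR adjusted p = 0.0022) and -0.76 ± 0.16 (edgeR adjusted p = 0.00621). H2-Oa stood at 217, 159.6 and 187 CPM in cko and 420.3, 309 and 256 CPM in ctr, also without overlap, but narrowly missed the threshold (-0.76 ± 0.21, edgeR adjusted p = 0.0559). It passed with the replicate block (0.000645), without a filter on low counts (4.41e-08), by DESeq2 (0.00451), after thinning (0.00108), and without ctr 1 (0.0458) or ctr 3 (0.0122). Cd74 stood at 35612, 33749.6 and 34179 CPM in cko and 40289.9, 38778 and 40075 CPM in ctr, without overlap (-0.16 ± 0.07, edgeR adjusted p = 0.166). The H2-Ob call was lost with a stricter gate (edgeR adjusted p = 0.052) and after thinning (0.234), for which cells were gated anew. Markers of other cells moved with this comparison: the summed monocyte markers reached 1661 to 1848 CPM in cko cDC2 and 1304 to 1496 CPM in ctr cDC2 (9 of 9 detected), the summed mature DC markers 165 to 235 CPM in cko and 97.1 to 108 CPM in ctr (7 of 7), and the summed cDC1 markers 73.9 to 97.5 CPM in cko and 111 to 140.1 CPM in ctr (7 of 7). The cDC2 markers themselves reached 3170 to 3441 CPM in cko and 2555 to 3160 CPM in ctr (7 of 7), and the tumour or epithelial markers 6.71 to 17.1 CPM in cko and 24.4 to 42.7 CPM in ctr. These lists did not overlap between the groups, while the summed macrophage markers did, at 610.5 to 891 CPM in cko and 461 to 738 CPM in ctr (12 of 12). The part of these transcripts in the result was not tested.

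The share of cells with a UMI was also taken within the subsets, after the same thinning. In cDC2, H2-DMb2 was found in 41.9% ± 3.52 of cko and 60.02% ± 7.76 of ctr cells, H2-Oa in 20.03% ± 2.51 of cko and 36.8% ± 9.59 of ctr cells and Ciita in 18.4% ± 2.70 of cko and 25.6% ± 4.78 of ctr cells (SD, n = 3 each, exact permutation p = 0.1 each), without overlap. H2-Ob overlapped there, at 8.88% ± 0.830 of cko and 12.8% ± 2.95 of ctr cDC2 (exact permutation p = 0.2). H2-DMb1 (81.8% ± 4.31 of cko, 80.3% ± 4.25 of ctr cDC2) and H2-DMa (86.7% ± 5.75, 87.2% ± 3.00) overlapped too. In cDC1, H2-DMb2 was found in 49.4% ± 7.74 of cko and 68.0% ± 4.29 of ctr cells and H2-Oa in 31.9% ± 9.72 of cko and 51.3% ± 3.37 of ctr cells (exact permutation p = 0.1 each). H2-DMa was also lower in cko cDC1, at 80.7% ± 3.11 of cko and 86.3% ± 2.34 of ctr cells (exact permutation p = 0.1), without overlap. H2-DMb1 went the other way, at 81.1% ± 6.74 of cko and 66.9% ± 4.38 of ctr cDC1 (exact permutation p = 0.1), also without overlap. The share of all genes that separate in this way was not counted. H2-Ob, at 16.8% ± 5.81 of cko and 20.01% ± 7.43 of ctr cDC1 (exact permutation p = 0.7), and Ciita, at 33.1% ± 7.96 of cko and 32.3% ± 6.61 of ctr cDC1 (0.9), overlapped. For H2-Ob the groups thus overlapped in both subsets, although they did not in whole cDC.

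In cDC1, where a cko sample held 22 to 27 cells, none of the 10 genes passed edgeR's test (background 0.581% at the adjusted threshold). At an unadjusted p under 0.05 there were 2, and DESeq2 called 0. H2-Oa stood at 266, 179 and 316 CPM in cko cDC1 and 368, 395 and 466 CPM in ctr cDC1 (-0.74 ± 0.19, edgeR adjusted p = 0.137). H2-DMb2 stood at 699.8, 393 and 673 CPM in cko and 781, 890.0 and 863 CPM in ctr (-0.57 ± 0.21, edgeR adjusted p = 0.34). Neither overlapped between the groups, but the share of all genes that separate in this way was not counted. H2-Ob, at 108, 106 and 83.9 CPM in cko and 115, 103 and 145 CPM in ctr, did overlap. H2-Oa passed without removal by doublet score (0.0352), and H2-Oa and H2-DMb2 passed without a filter on low counts (1.54e-05 and 0.000261). Summed cDC1 markers (636 to 901 CPM in cko, 696 to 858 CPM in ctr) and cDC2 markers (1532 to 2691 CPM, 1293 to 1993 CPM) overlapped between the groups. Summed macrophage markers (207 to 226 CPM in cko, 167 to 196 CPM in ctr) and tumour or epithelial markers (10.0 to 26.5 CPM, 51.4 to 91.0 CPM) did not. Their part in the cDC1 values was not tested.

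H2-DMb2 took a smaller part of the DM β chain transcripts in each cko cDC sample than in each ctr sample. Its share of the summed UMIs of H2-DMb1 and H2-DMb2 was 39.9%, 28.8% and 35.7% in cko cDC and 52.1%, 47.9% and 47.1% in ctr cDC (34.8% ± 5.63 against 49.0% ± 2.72, SD, n = 3 each, exact permutation p = 0.1). The share was 44.0%, 34.7% and 45.4% in cko cDC1 and 53.1%, 56.8% and 55.7% in ctr cDC1, and 36.7%, 27.8% and 28.5% in cko cDC2 and 51.3%, 41.0% and 38.8% in ctr cDC2. No cko sample reached a ctr sample in either subset. In macrophages the share was 4.08%, 8.58% and 3.96% in cko and 3.94%, 5.04% and 3.86% in ctr, and in monocytes 8.05%, 7.40% and 6.54% in cko and 6.62%, 10.6% and 6.83% in ctr, with overlap in both.

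**Figure D3:**
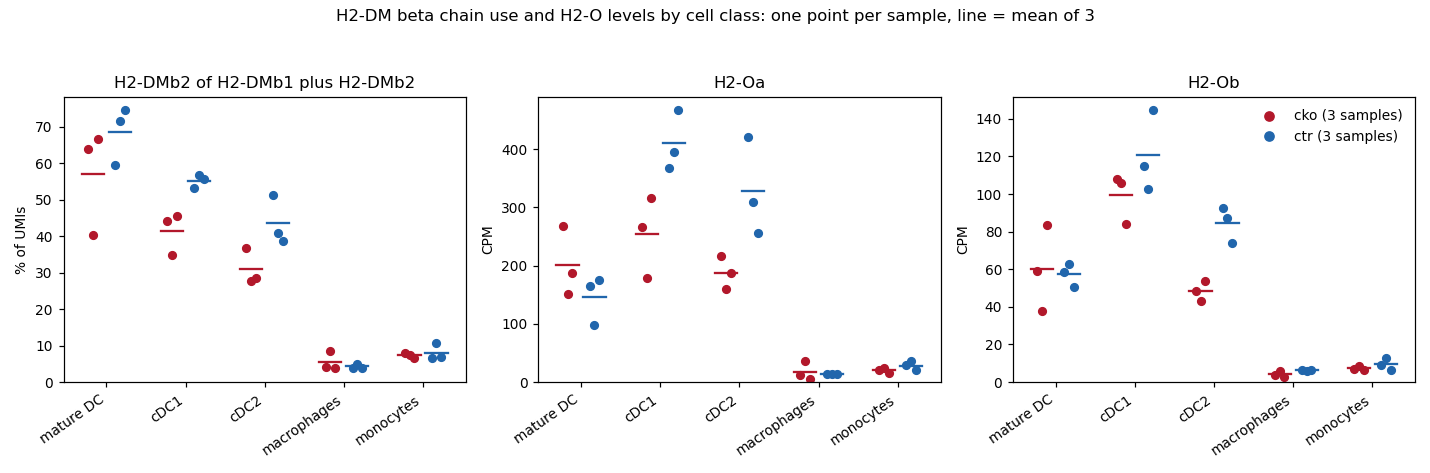
Share of H2-DMb2 in the UMIs of H2-DMb1 plus H2-DMb2 (left, %), and levels of H2-Oa (middle) and H2-Ob (right, CPM), in mature DC, cDC1, cDC2, macrophages and monocytes; each point is 1 sample, cko in red and ctr in blue, and the line is the mean of 3. The share lies between 27.8% and 56.8% in cDC1 and cDC2 and between 3.86% and 10.6% in macrophages and monocytes.

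Mature DC, the Ccr7-high cells that carry antigen to lymph nodes, showed another pattern: the class II chains were higher in cko. H2-Aa stood at 13438, 13811 and 13699.9 CPM in cko mature DC and 7816, 8788 and 10026 CPM in ctr mature DC. H2-Ab1 stood at 10113, 8712 and 8742 CPM in cko and 4566, 4819 and 5846 CPM in ctr. H2-Eb1 stood at 11208, 10064 and 10473 CPM in cko and 5752, 6423 and 8293 CPM in ctr. For all 3 chains each cko sample lay above each ctr sample. Cd74 stood at 28755, 27619 and 29397 CPM in cko and 18282, 23070.2 and 25727 CPM in ctr. H2-DMb1 stood at 349.5, 390.3 and 276 CPM in cko and 186, 182 and 187 CPM in ctr, on 48 to 139 UMIs a sample. These 2 also showed no overlap.

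By edgeR's quasi-likelihood test 5 of the 10 genes rose in cko mature DC (background 5.7% higher and 8.16% either way, over 3650 genes tested; median of the 10 genes 0.51, of all genes tested -0.03). The log2 fold changes were 0.66 ± 0.11 for H2-Aa (adjusted p = 0.00156), 0.89 ± 0.12 for H2-Ab1 (0.000234), 0.67 ± 0.13 for H2-Eb1 (0.00322), 0.39 ± 0.12 for Cd74 (0.0487) and 0.90 ± 0.20 for H2-DMb1 (0.01). H2-DMa (468, 562 and 505 CPM in cko, 342, 353 and 414 CPM in ctr) was at 0.51 ± 0.17 (edgeR adjusted p = 0.0829), and Ciita (56.5, 96.5 and 83.5 CPM in cko, 31.3, 45.4 and 101 CPM in ctr) at 0.51 ± 0.39 (0.517). H2-DMb2, H2-Oa and H2-Ob did not pass and overlapped between the groups. The Cd74 call was lost in 8 of 13 alternatives, among them summing cko 1 and cko 3 (0.0994) and leaving out cko 1 (0.103), cko 2 (0.0779), cko 3 (0.198), ctr 1 (0.115) or ctr 2 (0.0524), whereas H2-Ab1 and H2-Eb1 passed in all 13. H2-Aa and H2-DMb1 did not pass after thinning, for which cells were gated anew (edgeR adjusted p = 0.0809 and 0.533).

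The groups held 84 cko and 90 ctr mature DC, with 22 to 44 cells a sample, and the cells varied widely among themselves. The median share of a cell's UMIs from the 10 genes was 6.49%, 4.78% and 6.67% in cko mature DC and 1.14%, 3.68% and 3.06% in ctr mature DC (5.98% ± 1.04 against 2.63% ± 1.32, SD, n = 3 each, exact permutation p = 0.1). The 90th percentile over cells was close, at 9.55% ± 0.860 in cko and 9.23% ± 0.743 in ctr (exact permutation p = 0.6). Markers of other states moved with the group here as well. Summed monocyte markers reached 588 to 920.0 CPM in cko and 183 to 342 CPM in ctr (8 of 9 detected), summed cDC2 markers 1763 to 2277 CPM in cko and 1032 to 1561 CPM in ctr (7 of 7), and summed mature DC markers 9195 to 10768 CPM in cko and 10136 to 15735 CPM in ctr (7 of 7). The part of these in the class II difference was not tested.

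The change in mature DC was set against that in cDC2 as the difference of the 2 genotype effects. It passed edgeR's test for 7 of the 10 genes, all more positive in mature DC (background 1.04% in this direction and 1.86% either way). The differences were 0.99 ± 0.12 for H2-Ab1 (adjusted p = 1.71e-06), 0.76 ± 0.12 for H2-Eb1 (0.000243), 0.70 ± 0.12 for H2-Aa (0.000416), 0.60 ± 0.11 for Cd74 (0.00265), 1.30 ± 0.25 for H2-Oa (0.00244), 0.88 ± 0.19 for H2-DMb1 (0.00808) and 0.67 ± 0.17 for H2-DMa (0.0283). After thinning to equal depth, with cells gated anew, 1 of these 7 passed, H2-Eb1. The H2-DMa call was also lost with cko 1 and cko 3 summed (0.0668) and without cko 1 (0.0514), cko 2 (0.0753), cko 3 (0.0787) or ctr 1 (0.146), and the H2-DMb1 call without cko 1 (0.0843).

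Over both genotypes, H2-DMa and H2-DMb1 were lower in mature DC than in cDC2. H2-DMb1 was lower (log2 difference -1.95 ± 0.15, edgeR adjusted p = 4.51e-08), as was H2-DMa (-1.48 ± 0.11, 9.05e-10), with H2-Ab1 (-0.84 ± 0.20, 0.00663), Ciita (-0.78 ± 0.19, 0.00146) and Cd74 (-0.50 ± 0.14, 0.0128) also lower (5 of 10 genes; background 22.4% lower and 42.6% either way). H2-DMb2 (-0.41 ± 0.24), H2-Oa (-0.46 ± 0.26) and H2-Ob (-0.06 ± 0.19) did not pass. H2-DMb2 made up 63.9%, 40.4% and 66.7% of the DM β chain UMIs in cko mature DC and 59.4%, 71.6% and 74.6% in ctr mature DC, above the share in each other class in all 6 samples. H2-Eb2, a class II β chain gene outside the 10, was higher in mature DC than in cDC2 (log2 difference 4.45 ± 0.26, edgeR adjusted p = 3.29e-13). Without cko 2, H2-Aa (-0.49, adjusted p = 0.0202) and H2-Eb1 (-0.52, 0.0329) passed as lower too.

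In macrophages H2-DMb1 fell in cko, the 1 of the 10 genes that passed edgeR's test (background 3.44% lower and 9.02% either way). This count is near the share over all genes in either direction, so it does not set the 10 genes apart. H2-DMb1 stood at 703, 791 and 598 CPM in cko macrophages and 893, 1059.8 and 961 CPM in ctr macrophages (-0.43 ± 0.12, edgeR adjusted p = 0.0498). H2-Aa stood at 9439, 10907 and 7354 CPM in cko and 11006, 11006 and 11341 CPM in ctr. Cd74 stood at 23957, 27269 and 19168 CPM in cko and 29351, 29403 and 31600.2 CPM in ctr. All cko samples lay below all ctr samples for these genes and for H2-Ab1, H2-Eb1, Ciita and H2-Ob. How many of all genes tested separate the groups in this way was not counted, so whether this is unusual cannot be told. The H2-Ob level of macrophages was low, with T cells at 5.70% to 39.5% of it. For H2-Aa and Cd74, cko 2 lay closest to ctr and cko 3 farthest. The macrophages of cko 2 held the most cDC2 markers, with 851 CPM against 399 to 563 CPM in the other 5 libraries. They also held the most mature DC markers, with 62.4 CPM against 22.0 to 28.0 CPM. Their cDC1 markers were the lowest, with 54.2 CPM against 60.5 to 78.6 CPM. Markers shared by all cDC, at 351 CPM, lay within the range of the other libraries (273 to 417 CPM). The part of these transcripts in the values of cko 2 was not tested. The log2 fold changes were -0.22 ± 0.14 for H2-Aa (edgeR adjusted p = 0.364), -0.21 ± 0.12 for H2-Ab1 (0.299), -0.34 ± 0.14 for H2-Eb1 (0.165), -0.31 ± 0.13 for Cd74 (0.166) and -0.25 ± 0.12 for Ciita (0.227). At an unadjusted p under 0.05 there were 4 genes, all lower, but the share of all genes at that rule was not counted. The median over the 10 was -0.23, against -0.02 over all genes tested.

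The H2-DMb1 call in macrophages held in 7 of 13 alternatives and was lost with cko 1 and cko 3 summed (adjusted p = 0.117), after thinning (0.0505) and without cko 1 (0.133), cko 3 (0.148), ctr 2 (0.153) or ctr 3 (0.114). Without cko 2, H2-Eb1 (-0.49, 0.0426) and Cd74 (-0.44, 0.0482) also passed. Summed macrophage markers moved with the group, at 17631 to 19993 CPM in cko and 28527 to 34177 CPM in ctr (12 of 12 detected), while summed monocyte markers reached 4911 to 7596 CPM in cko and 4246 to 6533 CPM in ctr (9 of 9) and summed B cell markers 11.2 to 19.5 CPM in cko and 26.3 to 40.7 CPM in ctr (4 of 6). Their part in the class II values was not tested. The genotype effect on H2-DMb1 was more positive in cDC than in macrophages by 0.59 ± 0.12 (edgeR adjusted p = 0.0193), the 1 of 10 genes that passed for this difference (background 2.23%). That call was lost without cko 1 (0.0808) and with cko 1 and cko 3 summed (0.0671), and without cko 2 it was joined by H2-Aa, H2-Ab1, H2-Eb1 and Cd74 (edgeR adjusted p = 0.00193 to 0.0172). For monocytes against macrophages the same difference passed for 0 of the 10 genes (edgeR, background 0.392% at the adjusted threshold, not run with DESeq2). At an unadjusted p under 0.05 there was 1.

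In monocytes 0 of the 10 genes passed edgeR's test (background 4.62% at the adjusted threshold). At an unadjusted p under 0.05 there was 1, and DESeq2 called 0. H2-Aa stood at 7919, 6569 and 6148 CPM in cko monocytes and 6164, 7711 and 5676 CPM in ctr monocytes, with overlap. Log2 fold changes ran from -0.48 for H2-Oa to 0.17 for H2-Ab1. H2-DMb1, at 659.5, 665 and 584 CPM in cko and 719, 923 and 675 CPM in ctr, did not overlap (-0.23 ± 0.12, edgeR adjusted p = 0.289).

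The share of each cell's UMIs from the 10 genes was also taken cell by cell. The median macrophage stood at 4.62%, 5.44% and 3.68% in cko and 5.88%, 5.83% and 6.25% in ctr (4.58% ± 0.880 against 5.99% ± 0.226, SD, n = 3 each, exact permutation p = 0.1). The median cDC2 stood at 7.92%, 7.12% and 7.54% in cko and 8.15%, 8.43% and 8.29% in ctr (7.53% ± 0.402 against 8.29% ± 0.140, exact permutation p = 0.1). The groups did not overlap in either class. The cDC2 medians overlapped with a stricter gate (cko minus ctr -0.68 points, exact permutation p = 0.2) and after thinning (-0.60 points, exact permutation p = 0.3). The median monocyte went the other way, at 3.60%, 2.43% and 2.30% in cko and 1.55%, 2.30% and 1.17% in ctr (2.78% ± 0.712 against 1.67% ± 0.575, exact permutation p = 0.1), with cko 3 and ctr 2 at nearly the same value. Without removal by doublet score the monocyte medians overlapped (exact permutation p = 0.3). In the monocyte sums the macrophage markers reached 2203 to 2751 CPM in cko and 2961 to 3143 CPM in ctr and the mature DC markers 42.7 to 73.5 CPM in cko and 27.4 to 33.2 CPM in ctr, both without overlap, and their part in the medians was not tested. Monocytes under 0.5% made up 22.2%, 27.2% and 28.5% of cko monocytes and 32.4%, 30.4% and 41.8% of ctr monocytes (26.0% ± 3.32 against 34.9% ± 6.08, exact permutation p = 0.1). The 90th percentile of monocytes was 7.29% ± 0.408 in cko and 8.11% ± 0.462 in ctr (exact permutation p = 0.2). With 3 samples a group no such difference can reach 0.05.

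**Figure D4:**
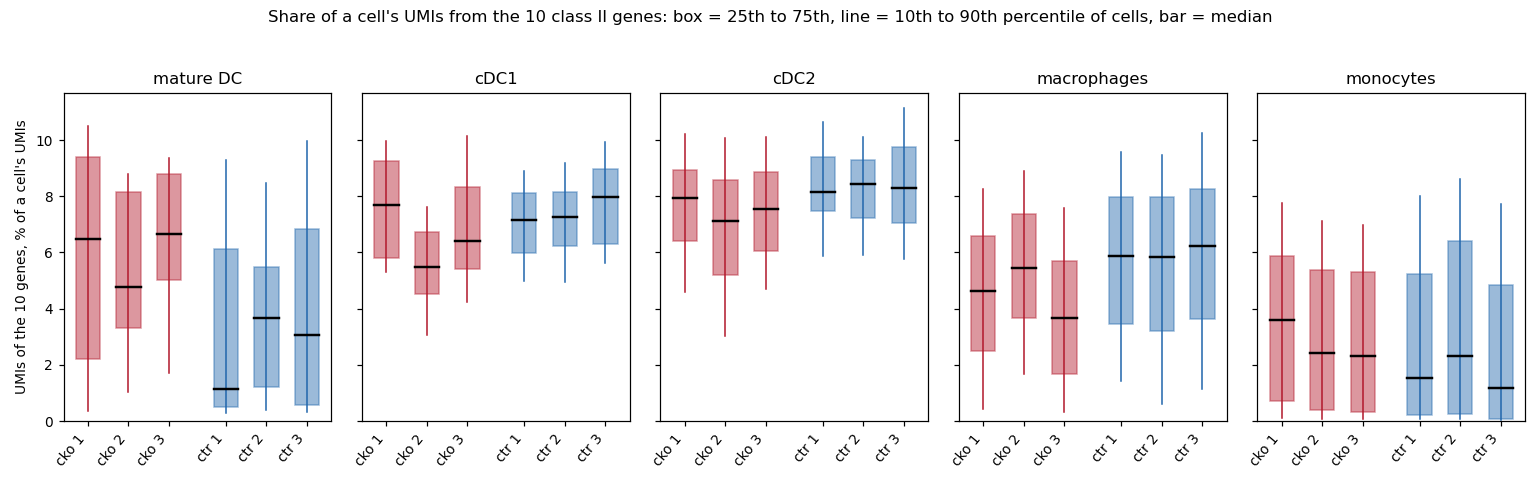
Share of a cell's UMIs from the 10 genes (y axis, %) in mature DC, cDC1, cDC2, macrophages and monocytes, 1 box per sample (cko red, ctr blue): the box spans the 25th to 75th percentile of cells, the line the 10th to 90th, and the bar is the median. Monocyte boxes start near 0 in every sample, cDC2 boxes all lie above 5%, and the mature DC medians are 4.78% to 6.67% in cko and 1.14% to 3.68% in ctr.

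In T cells 0 of the 10 genes passed edgeR's test (background 1.92% at the adjusted threshold), while DESeq2 called 3: Ciita, H2-DMa and H2-Oa. At an unadjusted p under 0.05 in edgeR there were 3, all lower in cko, with the share of all genes at that rule not counted. H2-DMa stood at 30.7, 31.7 and 34.2 CPM in cko T cells and 45.2, 43.0 and 39.3 CPM in ctr T cells (-0.42 ± 0.09, edgeR adjusted p = 0.0643). H2-Oa was at -0.56 ± 0.11 (edgeR adjusted p = 0.054). Without cko 2, edgeR called H2-Oa (0.0114), H2-DMb2 (0.0411), Cd74 (0.0361) and H2-Eb1 (0.0478), and without a filter on low counts H2-Oa (0.0428). Summed macrophage markers in the same T cells reached 24.4 to 45.6 CPM in cko and 72.4 to 139 CPM in ctr (12 of 12 detected), and summed monocyte markers 1495 to 2295 CPM in cko and 1115 to 1362 CPM in ctr (9 of 9), both without overlap. Their part in the T cell values was not tested.

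Other genes of the pathway were counted from lists drawn up for this tissue, with the same test in each class. The interferon gamma input list (receptors, kinases, transcription factors and targets, 12 tested) had 4 genes higher in cko macrophages (background 5.58% of all genes tested), 2 in cko monocytes (background 2.78%) and 5 in cko cDC (background 9.36%), and none lower. Within cDC2 5 were higher as well (background 6.38%, median of the list 0.44). Within cDC1 none passed edgeR's test, and the 1 gene at an unadjusted p under 0.05 was lower in cko. The median log2 fold change of the list was 0.40 in macrophages (-0.02 over all genes tested), 0.12 in monocytes (-0.01) and 0.52 in cDC (0.00). Irf1, a factor that drives Ciita, rose by 0.69 ± 0.13 on the log2 scale in cko cDC (edgeR adjusted p = 0.00637), while in macrophages it was at 0.54 ± 0.18 (0.0885). Gbp2, a guanylate-binding target, stood at 443, 479.7 and 433 CPM in cko cDC and 211, 277 and 184 CPM in ctr cDC (1.08, 0.000444). Jak2, a kinase bound to the receptor, rose in macrophages (0.86 ± 0.11, 0.000937) and monocytes (0.56 ± 0.10, 0.00941). In the same cells none of H2-Aa, H2-Ab1, H2-Eb1, Cd74 and Ciita passed.

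Of the class II transcription factors (10 tested), Nfya, a subunit of the Y box factor, rose in cko macrophages (0.61, edgeR adjusted p = 0.0269) and Irf8, a factor of the dendritic cell lineage, rose in cko cDC (0.44 ± 0.10, 0.0139), cDC2 (0.97 ± 0.15, 0.00131) and cDC1 (0.64 ± 0.13, 0.048), with no other call in those classes or in monocytes. Each call was 1 of 10 genes tested in macrophages (background 5.58% higher), cDC (9.36%) and cDC2 (6.38%). In cDC1 it was 1 of 9 tested (background 0.581% either way). Rfx5, which binds the X box, was at -0.43 ± 0.27 in macrophages (edgeR adjusted p = 0.359), 0.54 ± 0.20 in monocytes (0.148) and 0.03 ± 0.20 in cDC (0.956). Between classes, Rfx5 was higher in cDC than in macrophages by 0.62 (0.00242) and Irf4 by 2.96 (1.99e-13). Of the inhibitors of class II (6 tested), Prdm1, a repressor of Ciita, stood at 27.8, 17.3 and 21.4 CPM in cko cDC and 3.98, 5.17 and 5.62 CPM in ctr cDC (2.26 ± 0.25, edgeR adjusted p = 0.000287), and rose in cko cDC2 by 2.14 ± 0.30 (0.000342) and in cko macrophages by 0.86 ± 0.13 (0.00253). Il10ra, a subunit of the IL-10 receptor, fell in cko macrophages (-0.57 ± 0.09, 0.00355) and in cko monocytes (-0.42 ± 0.10, 0.0296). Tgfbr2, a subunit of the TGF-β receptor, fell in cko macrophages (-0.82 ± 0.17, edgeR adjusted p = 0.0139), monocytes (-0.83 ± 0.17, 0.0177) and cDC (-0.65 ± 0.18, 0.0314). Of the 6 inhibitors, 1 was higher and 2 lower in cko macrophages (background 5.58% higher and 3.44% lower). In cko monocytes 1 was also higher and 2 lower (background 2.78% and 1.83%). In cko cDC 1 was higher and 1 lower (background 9.36% and 6.53%), and in cDC2 1 was higher (background 6.38%).

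The endosomal processing list (proteases, Ifi30, Cst3 and lysosomal membrane proteins, 11 tested) had 3 genes lower in cko macrophages (background 3.44%), the cathepsins Ctsb (-0.66 ± 0.15, edgeR adjusted p = 0.0194), Ctsd (-0.62 ± 0.15, 0.0279) and Ctsh (-0.41 ± 0.09, 0.0161), and none higher. In cko cDC 3 were higher (background 9.36%), Lamp1 (0.93 ± 0.10, edgeR adjusted p = 0.000214), Lamp2 (0.76 ± 0.11, 0.00112) and Ctsz (0.32 ± 0.09, 0.0344). In monocytes none passed edgeR's test (4 at an unadjusted p under 0.05, 1 higher and 3 lower in cko). Of these 11 genes 10 were lower and 1 was higher in cDC1 than in cDC2 by edgeR's test (background 14.1% either way, median of the list -0.74). cDC1 made up less of cko cDC, and the part of this in the cDC values was not tested. Within cDC2 2 genes rose (background 6.38%), Lamp1 (0.69 ± 0.11, edgeR adjusted p = 0.00126) and Lamp2 (0.60 ± 0.14, 0.0107), while Ctsz was at 0.21 ± 0.09 (0.177). The median of the list was 0.08 in cDC2 and 0.31 in cDC. Within cDC1 none passed edgeR's test (4 at an unadjusted p under 0.05, 2 higher and 2 lower in cko). Ctss, the protease that trims Cd74, was at -0.15 ± 0.10 in macrophages (0.404) and 0.31 ± 0.15 in cDC (0.214), and Ifi30, the lysosomal thiol reductase, was at -0.21 ± 0.09 in macrophages (0.193) and -0.14 ± 0.09 in cDC (0.361). The class II turnover list had no call in macrophages (1 of 3 at an unadjusted p under 0.05), monocytes (0 of 3) or cDC (0 of 2 tested) by edgeR. Of the class I presentation list (15 tested), 0 passed in macrophages (7 at an unadjusted p under 0.05, all higher; edgeR), 1 in monocytes (B2m, the class I light chain, 0.42 ± 0.10, 0.0363; background 2.78%) and 4 in cDC (Tap2, Tapbp, Psme2 and Nlrc5; background 9.36%), all higher in cko. Within cDC2 Tap2, Tapbp and Psme2 passed (background 6.38%) and Nlrc5 was at 0.54 ± 0.19 (edgeR adjusted p = 0.0875). Nlrc5, the class I counterpart of Ciita, rose in cDC (0.57 ± 0.16, 0.0318) and was at 0.37 ± 0.14 in macrophages (0.125) and 0.31 ± 0.12 in monocytes (0.166).

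Of the costimulation list (7 tested), 3 genes were higher and 1 lower in cko macrophages (background 5.58% higher and 3.44% lower), 2 higher and 2 lower in cko monocytes (background 2.78% and 1.83%) and 4 higher and 1 lower in cko cDC (background 9.36% and 6.53%). Within cDC2 3 were higher, Cd80, Cd274 and Pdcd1lg2, and Icosl was lower (background 6.38% higher and 4.02% lower). Within cDC1 none passed edgeR's test (4 at an unadjusted p under 0.05, 2 higher and 2 lower in cko). Pdcd1lg2, which encodes the PD-1 ligand PD-L2, stood at 57.9, 72.0 and 40.2 CPM in cko macrophages and 15.2, 10.7 and 20.2 CPM in ctr macrophages (1.90 ± 0.29, edgeR adjusted p = 0.00609), and rose in cko monocytes by 2.11 ± 0.17 (0.0001) and in cko cDC by 1.78 ± 0.18 (0.00033). Cd274, which encodes PD-L1, stood at 238, 204 and 227 CPM in cko cDC and 101, 85.8 and 99.2 CPM in ctr cDC (1.29 ± 0.12, 0.000108). Cd80 rose in cko macrophages (1.11 ± 0.15, 0.00109), monocytes (0.99 ± 0.17, 0.0108) and cDC (1.18 ± 0.16, 0.000809). Cd86 rose in cDC (0.67 ± 0.11, 0.00215) and was at 0.32 ± 0.14 in macrophages (0.165), and Cd40 was at 0.46 ± 0.15 in cDC (0.0659). Icosl, the ligand of the costimulator ICOS, fell in cko macrophages (-0.85 ± 0.17, 0.00871), monocytes (-1.08 ± 0.17, 0.00557), cDC (-1.19 ± 0.18, 0.00149) and mature DC (-1.34 ± 0.30, 0.0108).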

How the data were processed

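Live CD45+ cells from tumours were profiled in 6 10x 5′ libraries. Per the submitters' processing notes, the authors used Cell Ranger 7.0.0 with mm10. The deposited values are UMI counts per gene and cell, unnormalized; the V(D)J tables were used only to compare clonotypes. Cells with at least 300 genes, 500 UMIs and at most 10% mitochondrial UMIs were kept. Scrublet's automatic threshold marked 0.426% of cells and was taken as not working, so the top scores at 0.8% per 1000 barcodes were removed (2203 cells). Classes were gated on UMIs per 10000 of marker genes in cells with at least 2000 UMIs; the borders were set with the data in view, 1038 cells lay between the macrophage borders, and 657 macrophages, 337 monocytes and 59 cDC lay within 25% above a border. Counts were summed per sample and class, with at least 20 cells each in the main fits. They were tested with edgeR 4.0.16 (R 4.3.3, TMM, filterByExpr, robust quasi-likelihood, Benjamini-Hochberg over all genes), checked on simulated data. The stricter gate held fewer, with 16 and 14 cDC1 in cko 2 and cko 3 and 19 mature DC in cko 2. DESeq2 1.42.0, no filter, a replicate block, a stricter gate, thinning to 2000 UMIs with cells gated anew, no doublet removal, cko 1 and 3 summed and leaving out each sample were alternatives. The shares of cells with a UMI kept the classes gated before thinning. Exact permutation tests over samples were two-sided. The members, marker and pathway lists were chosen with earlier results of these data known. Named pathway genes were the 6 with the smallest p per class and a short list (Rfx5, Ctss, Ifi30, Irf1, Nlrc5, Cd86 and Cd40 among them), of which a gene is not reported here; the other pathway genes in the text were named after their values were seen. Intervals and spreads cover 3 samples a group, and replicate numbers were not used to pair the samples except in the replicate block.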

Additional observations from a re-analysis of the deposited data

Results flagged for a closer look

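The genotype effect on H2-DMb1 was more positive in cDC than in macrophages by 0.59 on the log2 scale (edgeR adjusted p = 0.0193), which made it a difference between classes under 1 contrast. H2-DMb1 was 697 ± 96.6 CPM in cko and 971 ± 84.1 CPM in ctr macrophages (SD, n = 3 each), without overlap, while its cDC values overlapped. The call was lost without cko 1 and with cko 1 and cko 3 summed.

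Between mature DC and cDC2 the genotype effects differed for 7 genes, each more positive in mature DC by edgeR's test of the difference: H2-Aa by 0.70, H2-Ab1 by 0.99, H2-Eb1 by 0.76, Cd74 by 0.60, H2-DMa by 0.67, H2-DMb1 by 0.88 and H2-Oa by 1.30. H2-Aa was 13649.9 ± 191 CPM in cko mature DC and 8877 ± 1108 CPM in ctr mature DC, and 15391, 13479 and 14851 CPM in cko cDC2 and 15594, 14528 and 14864 CPM in ctr cDC2. These sums rest on 22 to 44 mature DC a sample, and 1 of the 7 differences passed after thinning.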

How the results depend on the processing

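Over 150 values of the 10 genes and 1613 alternatives, 1530 kept their side of the threshold, and 43 lost and 38 gained a call with the same sign. A change of sign was counted only where the main or the alternative value passed. Values that passed in neither may have changed sign uncounted. The counted changes of sign numbered 2. Those were H2-Ob in macrophages against monocytes with a stricter gate (0.0075) and H2-DMa for mature DC minus cDC2 after thinning (-0.0704); the cause was not tested. Of the 10 genes, 1 passed in macrophages, against 3 without a low-count filter, 0 with cko 1 and 3 summed, 2 with a stricter gate and 0 after thinning; in T cells 0 passed, against 3 by DESeq2 and 1 without the filter; for cDC minus macrophages 1 passed, against 0 summed.

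Over all genes, calls in macrophages (934) became 450 summed, 361 with the stricter gate and 387 after thinning. Calls in monocytes (461) became 896 without the filter, 117 summed and 250 with the stricter gate. Calls in cDC (1523) became 844 summed and 501 after thinning, and calls in T cells (243) became 645 by DESeq2 and 11 summed. Calls for cDC minus macrophages (238) became 99 summed and 122 after thinning. Summing leaves fewer samples. Thinning leaves fewer UMIs and also changed which cells a class held, since cells were gated anew on the thinned counts. For example, cDC1 of cko 1 went from 24 to 34 cells and mature DC of ctr 2 from 22 to 29. The parts of depth and gating in the changed calls were not tested. With the replicate block, T cell calls became 160 and no call among the 10 genes was lost; H2-Oa gained one in cDC2 and cDC1. Over genes, the deviations of same-numbered samples from their group means correlated at -0.0850 to 0.0961. The main tests therefore did not pair samples by number. Whether same-numbered samples shared a batch or litter cannot be told from these values. The share of monocytes under 0.5%, lower in cko by -8.89 points, was at -15.2 with the stricter gate.

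Leaving out each sample gave 345 to 1107 calls in macrophages, 104 to 820 in monocytes, 647 to 1878 in cDC, 26 to 669 in T cells, 5550 to 6445 for cDC against macrophages, 5746 to 6488 for cDC against monocytes, 2493 to 3254 for macrophages against monocytes and 47 to 255 for cDC minus macrophages. Of the 10 genes, 0 to 3 passed in macrophages, 0 in monocytes, 3 to 4 in cDC, 0 to 4 in T cells, 9 for cDC and 5 to 7 for macrophages against the other class named, 9 to 10 for cDC against monocytes and 0 to 5 for cDC minus macrophages. The cko minus ctr difference of the per-cell share ran from -1.84 to -0.958 points for the macrophage median, 0.693 to 1.42 for the monocyte median and -0.848 to -0.294 for the cDC median, and that of cells under 0.5% from 0.852 to 5.28 in macrophages and -11.1 to -5.43 in monocytes.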
